A study of Homo sapiens with 10 samples.

Results

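The cytosolic ribosomal proteins are the structural proteins of the ribosomes that translate nuclear-encoded mRNA. Their genes were taken from the deposited gene-level count matrix as protein-coding rows whose symbols begin with RPL or RPS in the standard nomenclature, with pseudogenes left out. This gave 85 of the 61587 genes listed. Of these, 77 are canonical members, 46 of the large (60S) and 31 of the small (40S) subunit, and 8 are variant paralogues with near relatives in the canonical set (RPS27L, RPL22L1, RPL26L1, RPL36AL, RPL39L, RPL7L1, RPL3L and RPL10L). FAU and RACK1 encode ribosomal components under other names and were treated separately.

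Bulk RNA-seq of polyA RNA was performed on RPTEC/TERT1 cells, human renal proximal tubular epithelial cells immortalised with telomerase. The irradiated group consisted of 5 samples given 10 Gy from a caesium gamma source, and the control group of 5 mock-irradiated samples that were carried to the irradiator without exposure. All 10 samples are labelled as kidney, all carry the same telomerase transgene, and the groups share replicate numbers 1 to 5. Cells were harvested at day 7, and the comparison asks how the irradiated cells, used as a model of tubular senescence, differ from unexposed cells. It is a single immortalised line grown without other kidney cells. The labels number the line differently from sample to sample, whereas the methods name RPTEC/TERT1 alone, and nothing in them says that replicates came from separate cultures, so p-values measure the spread between these samples, which may be technical.

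A ribosome is built from rRNA, transcribed in the nucleolus by RNA polymerase I, and from 1 copy each of most ribosomal proteins. Ribosomal protein mRNAs are among the most abundant in a dividing cell, and most begin with a C followed by a run of pyrimidines, the 5′ terminal oligopyrimidine (TOP) motif, through which mTORC1 and LARP1 control their translation and stability. Free RPL5 and RPL11, bound to 5S rRNA, inhibit MDM2 when ribosome assembly is disturbed, which links the ribosome to p53, and RPS27L is a known p53 target gene.

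Depth ranged from 66269311 to 131555873 counts on genes per sample. All 7 epithelial markers reached a mean CPM (count scaled to library size) of 1, as did 5 of 8 proximal tubule markers. LRP2, SLC34A1 and HNF4A did not. Markers of other cell types were scarce: 2 of 6 fibroblast, 2 of 5 endothelial and 0 of 6 immune markers reached 1 CPM. The fibroblast list summed to 15.8 to 23.4 CPM in control and 28.5 to 39.97 CPM in irradiated samples, the endothelial list to 1.32 to 2.45 and 4.18 to 6.09 CPM, and the immune list to 0.554 to 0.844 and 0.882 to 1.34 CPM. Their part in the results was not tested. Control 3 stood apart from the other controls, with the p53 target CDKN1A at 207.6 CPM against 66.7 to 80.9 CPM, and results are given without replicate 3 where it mattered.

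The share of all counts that fell on the 85 genes was lower in every irradiated sample than in every control. It was 3.60%, 3.38%, 3.85%, 3.70% and 3.63% in controls 1 to 5 and 2.98%, 3.09%, 3.0%, 3.04% and 3.11% in irradiated samples 1 to 5. The means were 3.63% ± 0.17 and 3.05% ± 0.057 (SD, n = 5), a difference of -0.584 percentage points. Control 3 was the highest and control 2 the lowest of the controls, and the irradiated samples lay closer together. In the same libraries, mitochondrially encoded genes took 7.78% to 10.7% of counts in control and 9.0% to 12.2% in irradiated samples. With mitochondrial counts left out of the total, the share was 3.70% to 4.31% in control and 3.31% to 3.43% in irradiated samples, again without overlap. These are shares of polyA RNA from bulk cultures, in which fewer cells with such mRNA and less of it per cell cannot be told apart, nor can a lower amount of it from a higher amount of other RNA.

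After scaling by the trimmed mean of M-values (TMM), which corrects for the composition of each library, the median canonical member was at a log2 CPM of 8.64 ± 0.11 in controls and 8.51 ± 0.038 after irradiation (SD, n = 5). The groups overlapped on this scale: controls ran from 8.49 (control 2) to 8.80 (control 3) and irradiated samples from 8.47 (irradiated 1) to 8.57 (irradiated 3). Within replicate numbers the median difference over the 77 genes was -0.16, -0.04, -0.28, -0.20 and -0.17 on the log2 scale for replicates 1 to 5. Replicate 2 moved least, with 61 of 77 members lower, whereas 69, 73, 76 and 73 were lower in replicates 1, 3, 4 and 5.

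**Figure D1:**
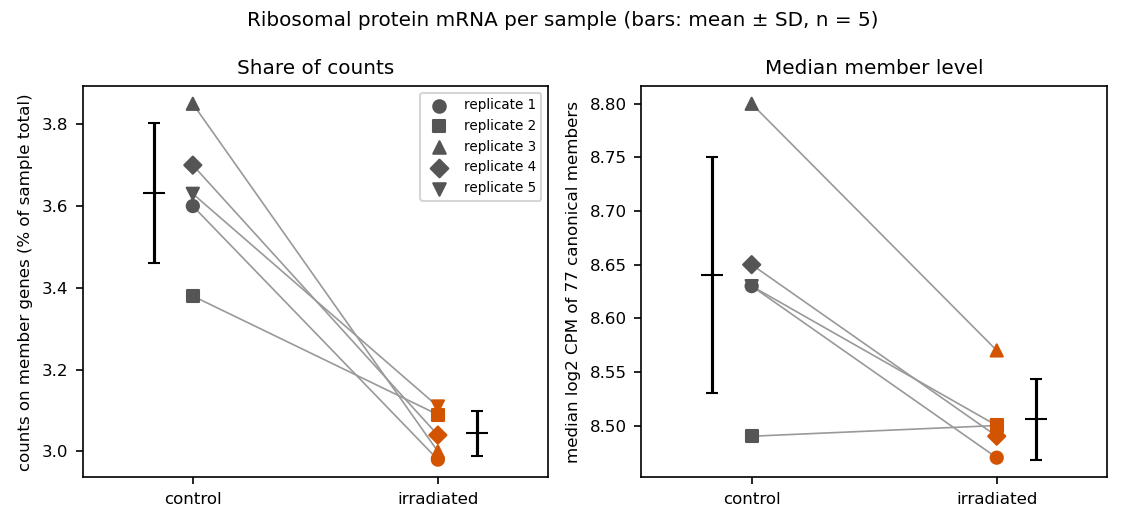
Left, percentage of each sample's counts on the 85 ribosomal protein genes. Right, median log2 CPM of the 77 canonical members. Grey points are controls, orange points irradiated samples, lines join equal replicate numbers and bars show mean ± SD (n = 5). The shares do not overlap between groups (3.38% to 3.85% against 2.98% to 3.11%), while the medians do, control 2 (8.49) lying among the irradiated samples.

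Most canonical members fell by a small amount after irradiation. By the quasi-likelihood test of edgeR, adjusted by the Benjamini-Hochberg method over all 19006 genes tested, 47 of 77 were lower (61.0%), against 22.7% of all genes tested. RPS19 was the 1 member called higher (1.3%), against 23.9% of all genes, and 29 did not pass the threshold. The median log2 fold change was -0.17 (quartiles -0.23 and -0.11), a change of -11.1%, beside a median of -0.01 over all genes. The estimate was below 0 for 73 of the 77, and 56 of the 77 were lower in all 5 pairs. For 21 members every irradiated sample lay below every control, against 12.0% of all genes, and for 1 member every irradiated sample lay above, against 14.6% of all genes.

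The count of lower members depended on single replicate pairs. It was 30 without replicate 1, 51 without replicate 2 and 40 without replicate 3. Of all genes, 18.2%, 22.1% and 22.1% were called lower there. The count was 21 without either replicate 4 or replicate 5, beside 16.3% and 16.1% of all genes. Without the replicate number as a block it was 31, beside 17.7% of all genes, and with scaling by library size only it was 71, beside 31.0%. Under that scaling 38.0% of all calls were in the higher direction, against 51.4% with TMM. The median over the canonical members remained negative in all 15 alternative settings, between -0.25 and -0.14.

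**Figure D2:**
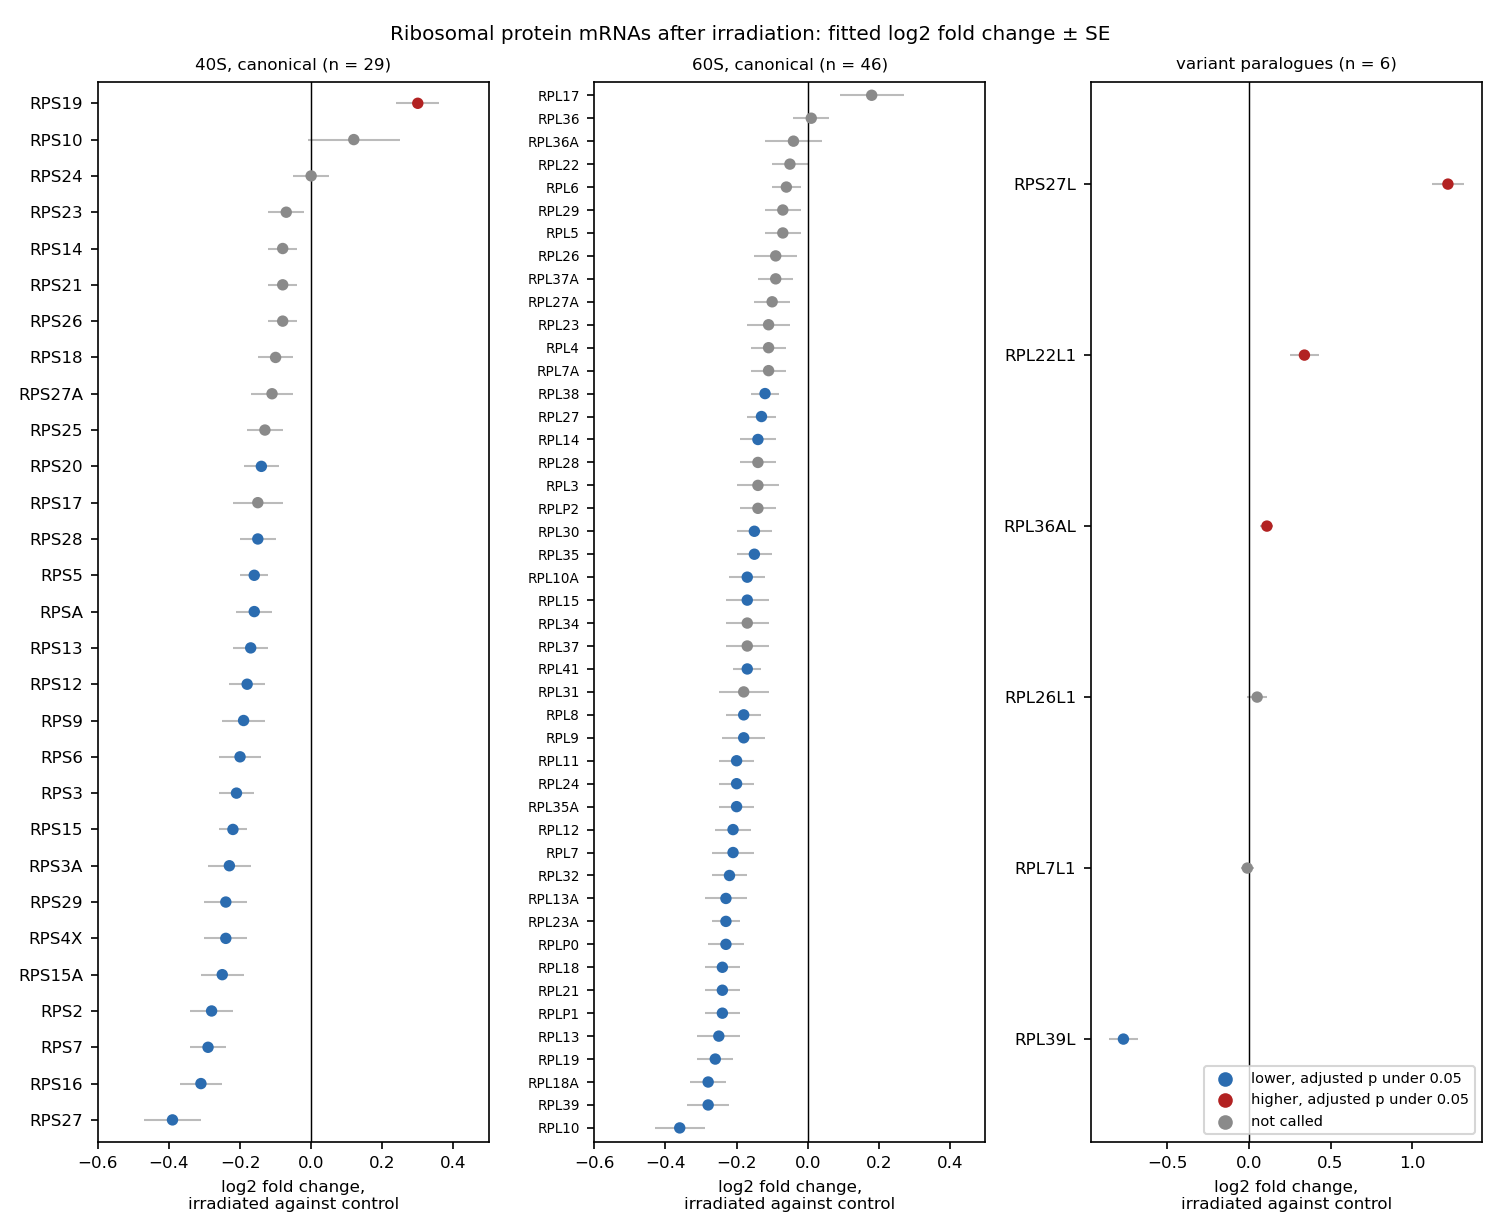
Fitted log2 fold change (irradiated against control, dots) with its standard error (lines) for 29 of the 31 canonical 40S, 46 canonical 60S and 6 variant genes tested, sorted within each panel, with a wider axis for the variants. Blue genes were lower and red genes higher at adjusted p under 0.05 by edgeR. RPS19 is the 1 red gene among the canonical members, whose values run from -0.39 to 0.30, and RPS27L stands at 1.22.

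The subunits had the same median. Of the 31 40S genes, 20 were lower and 1 was higher, with a median log2 fold change of -0.17. Of the 46 60S genes, 27 were lower and 0 were higher, also with a median of -0.17. Every irradiated sample lay below every control for 13 of the 40S and 8 of the 60S genes.

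RPS27, a zinc-finger protein of the small subunit, had the lowest fitted value among canonical members. Its level was 248, 244, 313, 251 and 243 CPM in controls 1 to 5 and 176, 220, 192, 197 and 206 CPM in irradiated samples 1 to 5. All irradiated samples lay below all controls, and control 3 was well above the other controls. The log2 fold change was -0.39 ± 0.08 (SE; edgeR adjusted p = 0.00601).

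RPS16, also of the small subunit, was at 581, 590, 714, 595 and 588 CPM in controls and 471, 517, 497, 484 and 492 CPM in irradiated samples (-0.31 ± 0.06, edgeR adjusted p = 0.00352). The groups did not overlap, and control 3 was again the highest sample.

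RPL10, which joins the large subunit late in its maturation, was the 60S gene with the lowest fitted value. Its level was 485, 403, 570, 472 and 459 CPM in controls and 360, 376, 392, 363 and 361 CPM in irradiated samples, without overlap (-0.36 ± 0.07, edgeR adjusted p = 0.00348). RPL10 shares 53.4% of its exon length with genes annotated on the other strand and with a snoRNA, so reads there may have been lost to it. RPS27, RPS16 and RPL10 were called lower in all 15 alternative settings.

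RPS19 was the exception in the canonical set. It encodes a small-subunit protein needed for maturation of 18S rRNA and is mutated in Diamond-Blackfan anaemia, and its gene lies at chr19:41860255-41872925 on the forward strand of GRCh38. Its level was 396, 366, 445, 419 and 392 CPM in controls 1 to 5 and 460, 509, 492, 517 and 505 CPM in irradiated samples 1 to 5. Every irradiated sample was above every control, and irradiated 1 was the lowest of its group. The log2 fold change was 0.30 ± 0.06 (SE; edgeR adjusted p = 0.00433), and it was called higher in all 15 alternative settings, between 0.22 and 0.35. None of its exon length is shared with another gene.

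The remaining largest estimates above 0 did not pass the test. RPL17 was at 5.35 ± 0.609 CPM in controls and 6.02 ± 0.166 CPM after irradiation (SD, n = 5; log2 fold change 0.18), and RPS10 at 1.08 ± 0.113 and 1.18 ± 0.136 CPM (0.12). Both levels are far below those of other members. RPL17 and RPS10 share 35.5% and 31.5% of their exon length with other genes, including the readthrough genes RPL17-C18orf32 and RPS10-NUDT3, which held 0 counts, as did RPL36A-HNRNPH2. Reads from exons shared in this way are assigned to no gene by the counting used, so the levels of RPL17, RPS10 and RPL36A (2.31 ± 0.225 CPM in control) are not their transcript levels. RPL36 (0.01) and RPS24 (-0.00) had estimates near 0. The other members with more than 20% of exon length shared, RPL30, RPS28 and RPS2, were lower at -0.15, -0.15 and -0.28.

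The 3 proteins of the P-stalk recruit translation factors to the large subunit. RPLP0 was at 1046, 974, 1242, 1126 and 1115 CPM in controls and 899, 894, 983, 951 and 942 CPM in irradiated samples. Control 2, the lowest control, lay just under irradiated 3, the highest irradiated sample. RPLP0 (-0.23 ± 0.05, edgeR adjusted p = 0.00834) and RPLP1 (-0.24 ± 0.05, edgeR adjusted p = 0.00541) were lower, and RPLP2 was at -0.14 ± 0.05 (edgeR adjusted p = 0.0519).

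RPL5 and RPL11, partners in the 5S rRNA particle that binds MDM2, are given together. RPL5 was at 479, 472, 568, 539 and 549 CPM in controls and 478, 479, 507, 515 and 505 CPM in irradiated samples, with overlap (-0.07 ± 0.05, edgeR adjusted p = 0.292). RPL11 was at 442, 407, 509, 467 and 469 CPM in controls and 396, 390, 412, 394 and 404 CPM in irradiated samples (-0.20 ± 0.05, edgeR adjusted p = 0.0145). Irradiated 3 was above control 2, the lowest control, and the call for RPL11 was lost in 2 of 15 alternative settings. Whether the changes of RPL5 and RPL11 differ was not tested.

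RPS6, the substrate of the S6 kinases, was at 816 ± 69.8 CPM in controls and 709 ± 30.6 CPM after irradiation (SD, n = 5; log2 fold change -0.20 ± 0.06, edgeR adjusted p = 0.0196). RPSA, the ribosomal protein also known as the laminin receptor precursor, was at 505 ± 37.6 and 451 ± 19.7 CPM (-0.16 ± 0.05, edgeR adjusted p = 0.0283). The call was lost in 2 of 15 settings for RPS6 and in 4 for RPSA.

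By CPM per kilobase of annotated exon in control samples, RPS12 (687), RPL8 (678), RPS2 (546) and RPL13A (437) were among the 5 highest canonical members. These genes were lower after irradiation, with log2 fold changes of -0.18 for RPS12, -0.18 for RPL8, -0.28 for RPS2 and -0.23 for RPL13A. The call was lost in 4 of 15 alternative settings for RPS12, 5 for RPL8 and 3 for RPL13A. The order depends on the length used: per kilobase of coding sequence the 5 highest included RPL41, RPL13A, RPL8 and RPL28. RPL3, which held the most counts of all members (1506979 over the 10 samples), was at -0.14 and did not pass the test (edgeR adjusted p = 0.0942).

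Members did not all keep the same proportion to each other. To describe this without any scaling between samples, each member's log2 level was expressed against the median canonical member of the same sample. The difference in this position between groups had an SD of 0.109 over the 77 members, while the median SD of a member's position was 0.053 among controls and 0.039 among irradiated samples. For 13 members every irradiated position was below every control position, and for 2, RPS19 and the low-count RPL17, every irradiated position was above. The 13 included RPS27, RPL10 and RPS16.

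Relative to the median member, RPS19 stood at 0.00, 0.02, 0.00, 0.06 and -0.02 in controls and at 0.37, 0.49, 0.37, 0.52 and 0.48 in irradiated samples. RPL10 stood at 0.29, 0.16, 0.36, 0.23 and 0.21 in controls and at 0.02, 0.06, 0.04, 0.01 and 0.00 in irradiated samples. RPS27 stood at -0.68, -0.56, -0.51, -0.68 and -0.71 in controls and at -1.01, -0.71, -0.99, -0.87 and -0.81 in irradiated samples. RPS19 and RPL10 were thus separated by group in every sample, whereas RPS27 in irradiated 2 lay only just below control 5. RPL3 overlapped between groups, at 1.95 to 2.05 in controls and 1.95 to 2.03 in irradiated samples.

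**Figure D3:**
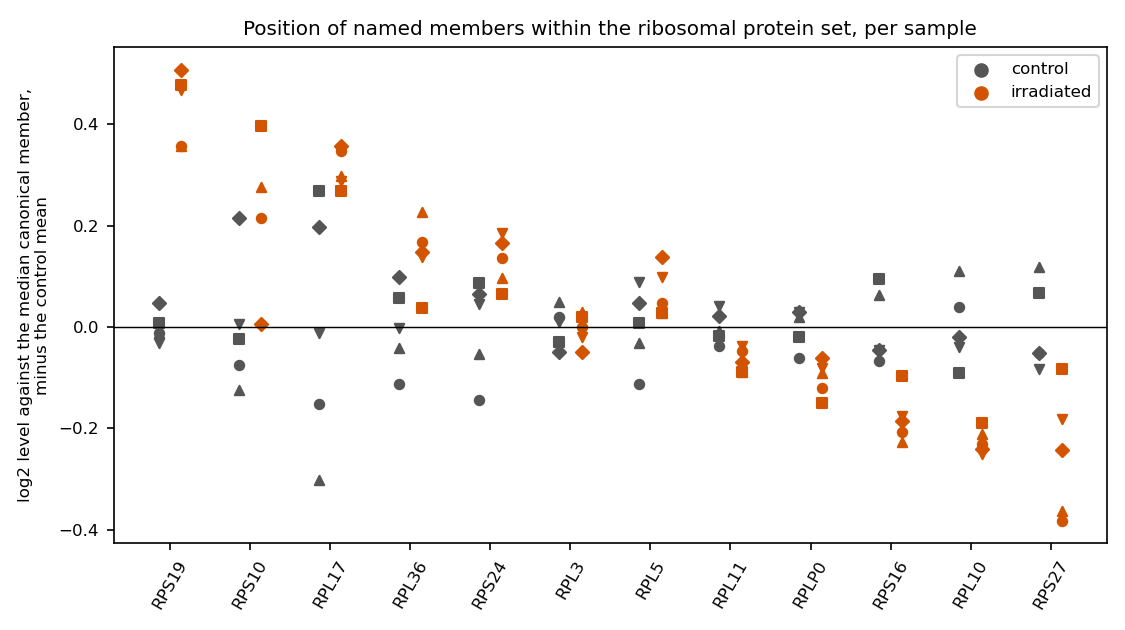
Log2 level of 12 named canonical members against the median canonical member of the same sample, minus the gene's mean over controls. Each point is 1 sample (grey, control; orange, irradiated; symbols mark replicate numbers). RPS19 lies above its controls in all 5 irradiated samples, RPL10 and RPS16 lie below theirs, and RPL3 overlaps.

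Of the 8 variant paralogues, 6 were tested. RPL10L, a retrocopy best known from testis, had 0 counts in all samples. RPL3L, the paralogue of RPL3 found in heart and skeletal muscle, had 85 counts in total, under the minimum of 200. Among the tested variants RPS27L, RPL22L1 and RPL36AL were higher, RPL39L was lower, and RPL26L1 and RPL7L1 did not pass the test.

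RPS27L had the largest change of any member. Its level was 42.8, 39.8, 54.3, 43.97 and 46.4 CPM in controls 1 to 5 and 93.3, 118, 96.3, 111 and 111 CPM in irradiated samples 1 to 5. All irradiated samples lay well above all controls, and control 3 was again the highest control. The log2 fold change was 1.22 ± 0.10 (SE; edgeR adjusted p = 7.52e-05), and it was called higher in all 15 alternative settings, between 1.14 and 1.33.

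RPS27L and RPS27 moved in opposite directions. They encode proteins of the same length from coding sequences of 255 bases, of which 199 (78.0%) are identical. The 56 differences include 48 at the third base of a codon, and the longest identical stretch is 20 bases, so any longer read over the coding part holds at least 1 difference. The annotated coding sequences are shown because this separation carries the result (GENCODE annotation, GRCh38, chr15:63125872-63158021 on the reverse strand for the gene RPS27L and chr1:153990762-153992155 on the forward strand for RPS27). Capitals mark the bases that differ between them.
RPS27L: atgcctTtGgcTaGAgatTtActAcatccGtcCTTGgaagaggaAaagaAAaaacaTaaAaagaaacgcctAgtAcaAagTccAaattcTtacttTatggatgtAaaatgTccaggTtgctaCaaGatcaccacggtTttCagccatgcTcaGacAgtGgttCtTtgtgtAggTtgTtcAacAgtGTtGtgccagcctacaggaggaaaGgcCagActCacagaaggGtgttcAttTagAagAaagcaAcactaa
RPS27: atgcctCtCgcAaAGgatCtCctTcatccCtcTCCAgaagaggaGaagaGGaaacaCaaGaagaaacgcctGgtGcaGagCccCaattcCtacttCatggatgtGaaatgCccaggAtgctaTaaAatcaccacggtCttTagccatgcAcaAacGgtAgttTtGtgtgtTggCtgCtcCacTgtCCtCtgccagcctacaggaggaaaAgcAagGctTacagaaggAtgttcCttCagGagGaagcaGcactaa

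The ratio of RPS27L to RPS27 within a sample does not depend on scaling. Its log2 value was -2.53, -2.61, -2.52, -2.51 and -2.39 in controls 1 to 5 and -0.92, -0.90, -0.99, -0.83 and -0.89 in irradiated samples 1 to 5. The samples of each group lay within a narrow band, and the bands were far apart. The mean rose from -2.51 ± 0.08 to -0.90 ± 0.06 (SD, n = 5), a difference of 1.61 or 3.05-fold (two-sided exact permutation test, p = 0.00794, the smallest it can give, and 0.0476 adjusted over 6 ratios). The ratio was higher in 5 of 5 pairs, by 1.5 to 1.71.

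Among the other ratios, RPL39L to RPL39 fell and those of RPL22L1 to RPL22 and RPL7L1 to RPL7 rose. RPL39L, known mainly from the male germ line, was at 4.59, 6.14, 5.58, 6.25 and 5.91 CPM in controls and 2.77, 3.08, 3.68, 3.81 and 3.35 CPM in irradiated samples (-0.77 ± 0.09, edgeR adjusted p = 0.000325). RPL39 itself was lower too, at 124 ± 17.8 and 102 ± 4.16 CPM (SD, n = 5; log2 fold change -0.28 ± 0.06, edgeR adjusted p = 0.00831). The log2 ratio dropped by 0.47 (exact permutation p = 0.0159, adjusted 0.0476), in 5 of 5 pairs, with pair differences from -0.81 to -0.02. Control 3 and irradiated 4 were both at -4.75. The coding sequences of RPL39L and RPL39 are 94.9% identical, so reads may be split between them.

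RPL22L1, a paralogue of RPL22, was at 9.90, 16.4, 13.2, 16.6 and 15.8 CPM in controls and 15.6, 16.4, 18.1, 19.7 and 19.8 CPM in irradiated samples. The groups overlapped, controls 1 and 3 being lowest (log2 fold change 0.34 ± 0.09, edgeR adjusted p = 0.0195). RPL22 was at 97.0 ± 7.07 and 93.3 ± 4.80 CPM (SD, n = 5; -0.05, edgeR adjusted p = 0.373), and the log2 ratio was higher by 0.39 in 4 of 5 pairs (exact permutation p = 0.0317, adjusted 0.0476). The edgeR call for RPL22L1 was lost in 3 of 15 alternative settings.

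RPL7L1 was at 144 ± 8.57 CPM in controls and 142 ± 4.60 CPM after irradiation (SD, n = 5; -0.01, edgeR adjusted p = 0.813), and RPL7 was lower (-0.21 ± 0.06, edgeR adjusted p = 0.0204). Their log2 ratio was higher by 0.20 in 4 of 5 pairs (exact permutation p = 0.0238, adjusted 0.0476). The edgeR call for RPL36AL (0.11 ± 0.04, adjusted p = 0.0471) was lost in 13 of 15 alternative settings. Its log2 ratio to RPL36A was higher by 0.15, in 5 of 5 pairs (exact permutation p = 0.127, adjusted 0.127). RPL26L1 to RPL26 was higher by 0.15, in 3 of 5 pairs (exact permutation p = 0.103, adjusted 0.124). The 4 ratios that passed did so at an adjusted p just under 0.05, near the limit of 5 samples against 5. Of 7 alternatives, 5 lost the call for RPS27L, RPL22L1 and RPL7L1 each, and 6 lost it for RPL39L. Adjusted p reached 0.129 for RPS27L and RPL39L and 0.171 for the others. With a replicate left out, or within pairs, the smallest p that the exact test can give is higher. A call lost there need not mean a smaller difference: the RPS27L to RPS27 difference stayed between 1.58 and 1.63.

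**Figure D4:**
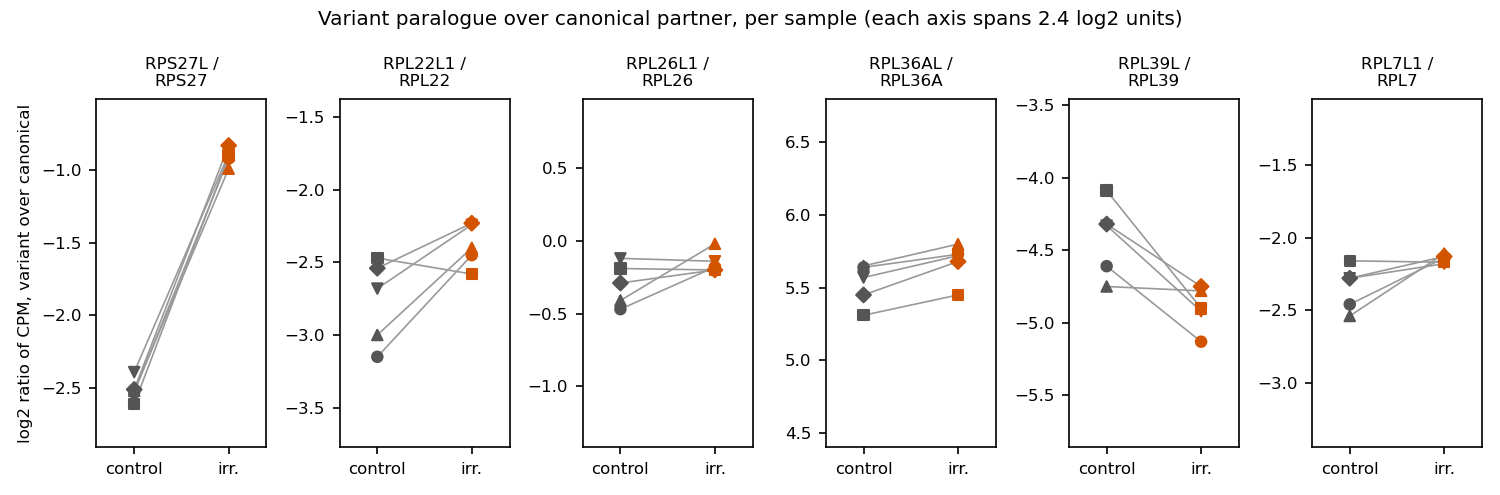
Log2 ratio of CPM of each variant to its canonical partner in every sample (grey, control; orange, irradiated), with lines joining equal replicate numbers. Each panel spans the same number of log2 units around its own centre. The RPS27L to RPS27 ratio moves up in all 5 pairs, from a mean of -2.51 to -0.90. The group means of the other ratios differ by 0.15 to 0.39 upwards or, for RPL39L to RPL39, by -0.47, and single pairs vary more.

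The start of the transcript was examined for the TOP motif. RefSeq sequence around the annotated gene start (GRCh38.p14) was at hand for 62 of the 77 canonical members and for 6 of the 8 variants. A run was defined as a C followed by at least 4 further pyrimidines on the gene's strand. It began exactly at the annotated start in 46 of 62 canonical members (74.2%), against 5.14% of 27305 genes with a sequence, and within 5 bases of it in 53 (85.5%), against 25.2%. Of the 6 variants, RPL22L1 had a run at the start, and RPL22L1 and RPL36AL within 5 bases. The starts are shown for genes described above, with 10 bases before the annotated start and 20 from it. Capitals mark the run where there is one.
RPS27: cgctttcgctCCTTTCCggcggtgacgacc
RPS27L: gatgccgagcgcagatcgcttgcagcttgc
RPS19: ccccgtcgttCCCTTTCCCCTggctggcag
RPLP0: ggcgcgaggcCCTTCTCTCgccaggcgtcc
RPL11: gctccgctttCTCTTCCTgctctccatcat
RPL22: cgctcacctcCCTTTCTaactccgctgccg
RPL22L1: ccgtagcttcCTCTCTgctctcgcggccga
RPL39: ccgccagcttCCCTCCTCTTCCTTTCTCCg
RPL26L1: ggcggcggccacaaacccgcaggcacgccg
RPL7L1: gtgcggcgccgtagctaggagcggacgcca

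RPS27, which fell, and RPS19, which rose, both start with such a run, of 7 and 11 bases. RPS27L has none in this window. Canonical members with a run within 5 bases of the start had a median log2 fold change of -0.17 (30 of 53 lower), and the 9 without one also had -0.17 (6 of 9 lower). The absence of these letters at 1 annotated start says nothing about other starts of the same gene.

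Canonical members lie on 21 chromosomes, with 12 of them on chromosome 19. The gene bodies of 28 of the 77 contain 60 snoRNA genes, for small RNAs that guide modification of rRNA, and 19 of these 28 hosts were lower (median log2 fold change -0.19), beside 28 of the other 49 (median -0.16).

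Other TOP mRNAs were examined next. Of the components outside the naming rule, RACK1, a scaffold on the small subunit, was at 727 CPM after irradiation against 875 CPM in control (-0.26 ± 0.06, edgeR adjusted p = 0.00916). FAU, the precursor of eS30, was also lower (-0.13, edgeR adjusted p = 0.0431). In a list of other genes with TOP mRNAs, mostly of translation, 9 of 20 tested were lower (45.0%) and 1 was higher (5.0%). Over all genes the shares were 22.7% and 23.9%. The list had a median of -0.15. EIF3F, a subunit of initiation factor eIF3, had the largest fall (198 to 148 CPM, -0.42 ± 0.06, edgeR adjusted p = 0.000971), and EIF3L (-0.32), NACA (-0.25), the splicing factor HNRNPA1 (-0.31) and the histone chaperone NAP1L1 (-0.25) were also lower. EIF4A2, a translation initiation helicase, was the 1 that rose (0.27 ± 0.06, edgeR adjusted p = 0.00599). The other 10 were not called. They include EEF2 (-0.18), EEF1A1 (-0.11), PABPC1 (-0.02), TPT1 (-0.01) and EEF1B2 (0.0).

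Genes that make ribosomes are given in 4 lists, to be read beside the 22.7% of all genes called lower and the 23.9% called higher. No test compared the lists with other genes. For RNA polymerase I and its cofactors, 3 of 17 were higher (17.6%) and 1 was lower (5.88%), with a median of 0.08. The initiation factor RRN3 (0.27), POLR1F (0.29) and POLR1C (0.25) rose, while POLR1D fell (-0.16). POLR1G had the highest estimate (0.33, edgeR adjusted p = 0.053) and POLR1H the lowest (-0.30, edgeR adjusted p = 0.0545), and neither passed.

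Of 30 genes for rRNA modification and nucleolar processing, 10 were higher (33.3%) and 2 were lower (6.67%), with a median of 0.08. WDR43, of the small-subunit processome, had the largest rise (0.33 ± 0.07, edgeR adjusted p = 0.00522). The fallers were FBL, the methyltransferase of box C/D snoRNPs (90.9 to 68.0 CPM, -0.42 ± 0.04, edgeR adjusted p = 0.000243), and the histone chaperone NPM1 (-0.27).

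Of 35 genes for 60S assembly, 10 were higher (28.6%) and 3 were lower (8.57%), with a median of 0.11. RRS1, which helps to place the 5S particle, had the largest rise (0.61 ± 0.11, edgeR adjusted p = 0.00358). EIF6 (0.46), SBDS (0.52) and EFL1 (0.47), which together act in the last step before the subunits can join, also rose. NOP53 had the largest fall (306 to 223 CPM, -0.45 ± 0.11, edgeR adjusted p = 0.0144, lost in 1 of 15 alternative settings), and RSL24D1 (-0.24) and RRP1B (-0.18) were also lower.

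Of 18 genes for 40S assembly, 3 were higher (16.7%) and 1 was lower (5.56%), with a median of 0.11. Among them were PNO1 (0.47 ± 0.10, edgeR adjusted p = 0.00729) as the largest rise, KRR1 (0.37) and LTV1 (0.29) as the others, and the endonuclease NOB1 (-0.22 ± 0.06, edgeR adjusted p = 0.0159) as the fall. With scaling by library size only, the medians of these 4 lists were 0.00 for RNA polymerase I, 0.01 for nucleolar processing and 0.03 for both assembly lists. The median of the canonical ribosomal proteins was -0.25 under the same scaling.

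Of 22 genes of mTORC1 and LARP1 control, 5 were higher (22.7%) and 6 were lower (27.3%), close to the shares over all genes, with a median of -0.06. The p53-induced mTORC1 inhibitor SESN1 had the largest rise (0.63 ± 0.12, edgeR adjusted p = 0.00372), and MYC (0.49), SESN2 (0.37), AKT1S1 (0.27) and RPTOR (0.24) also rose. The inhibitor DEPTOR had the largest fall (169 to 82.4 CPM, -1.04 ± 0.17, edgeR adjusted p = 0.00175). DDIT4 (-0.83), the translational repressor EIF4EBP1 (-0.58), RPS6KB1 (-0.26), LARP4 (-0.20) and MLST8 (-0.17) fell too. LARP1 itself was at -0.11 (edgeR adjusted p = 0.0598).

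Of 15 genes that detect or clear stalled ribosomes, 6 were higher and 2 were lower (median 0.10). Over all genes 23.9% were higher and 22.7% were lower. ASCC3 had the largest rise of the 15 (0.67 ± 0.05, edgeR adjusted p = 4.84e-05). RNF10 (-0.29 ± 0.04, edgeR adjusted p = 0.00108) was the larger of the falls, beside USP10 (-0.11). The nuclear genes for proteins of the mitochondrial ribosome were called lower at about the share of all genes: 16 of 77 tested were lower (20.8%) and 7 higher (9.09%), with a median of -0.06. MRPS17 had the largest fall (-0.76 ± 0.11, edgeR adjusted p = 0.00113) and MRPS23 the largest rise (0.48 ± 0.07, edgeR adjusted p = 0.000852).

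**Figure D5:**
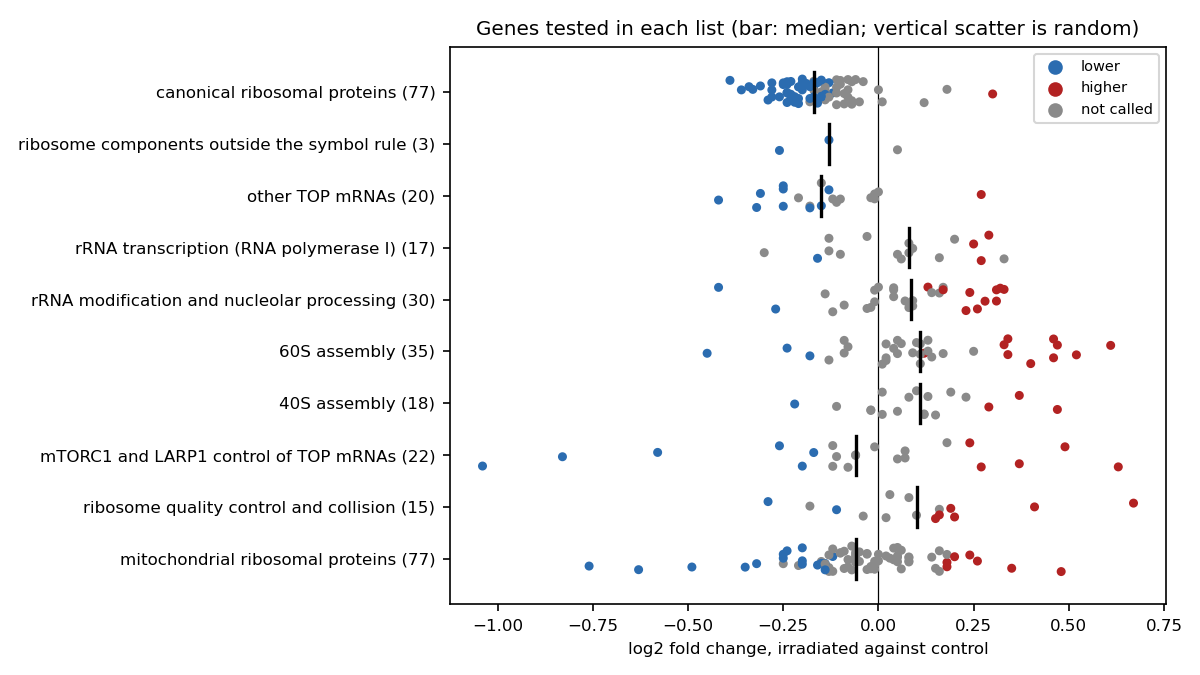
Fitted log2 fold change of each gene tested in the canonical ribosomal proteins and 9 related lists (the number tested in brackets), coloured by call (blue lower, red higher, grey not called), with the list median as a bar. The canonical ribosomal proteins and other TOP mRNAs have medians of -0.17 and -0.15, and the assembly lists have medians of 0.11.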

How the data were processed

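Gene counts of 5 control and 5 irradiated samples were used as deposited. The authors trimmed reads with Trim-Galore, aligned them to GRCh38 with STAR and took whole-number counts per gene during alignment, without normalisation. The annotation release is not given in the sources used here. Per the labels the libraries were made with a TruSeq kit, while the methods name another kit. Symbols, exons and coordinates came from GENCODE release 44 for GRCh38, in which 61369 of 61587 identifiers had a symbol and 56987 had the same version. The counts were treated as unstranded, so reads on exons shared by several genes are lost to all of them, and reads from near-identical copies may be lost or split.

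Genes holding 200 counts or more across the 10 samples entered a quasi-likelihood fit in edgeR 4.0.16 under R 4.3.3 (TMM, glmQLFit and glmQLFTest), in which replicate number was a block, as the study modelled it. Calls used a Benjamini-Hochberg adjusted p under 0.05, taken over the whole table. Each standard error was obtained from the fitted change and its F statistic. Deviations from group means correlated at 0.217 to 0.508 between samples of equal number and at -0.354 to 0.317 between others, so the numbers were taken as pairs. CPM values were TMM-scaled. Paralogue ratios were log2(CPM + 0.1) differences, tested by two-sided exact permutation in SciPy 1.17.1, and coding sequences were aligned with Biopython 1.88. RefSeq starts came from 300-base windows of GRCh38.p14, and searches were made on the gene's strand only. The tests were checked on simulated data.

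Named genes were all variants and their partners, the P-stalk genes, RPL5, RPL11, RPS6, RPSA, the 5 highest and 5 lowest fitted canonical changes, the 5 highest levels per kilobase of exon, members under the count limit or with over 20% of exon shared, and the largest rise and fall of each list. Other list genes named were chosen after their values were seen. The members and lists were chosen with earlier results of these data known. Alternatives were DESeq2 1.42.0, limma-voom (limma 3.58.1), other scalings, filters and offsets, no block, and each replicate left out. Counting intervals are negligible at these depths, and the spread between replicates sets the precision except for genes near 200 counts. Some genes that meet these rules are counted but not reported here by name. Other data types of the study were not analysed here.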

Additional observations from a re-analysis of the deposited data

Results flagged for a closer look

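A sample far from the other 4 of its group was found by Dixon's criterion in 7 of 122 groups tested, where chance alone would give about 6.1. Control 3 accounted for 3 of them. RPS16 was at 714.0 CPM in control 3 against 581.3 to 595.1 CPM in the other controls, RPS27 at 312.7 CPM against 243.0 to 251.1 CPM, and POLR1H at 5.263 CPM against 3.553 to 3.926 CPM. Without replicate 3, RPS16 and RPS27 were still called lower.

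Among the irradiated samples, the median log2 CPM of the canonical members was 8.571 in irradiated 3 against 8.475 to 8.497 in the others, and RACK1 was at 772.0 CPM there against 708.5 to 720.5 CPM. DEPTOR was at 132.6 CPM in irradiated 2 against 64.7 to 74.6 CPM. POLR1G was at 5.291 CPM in irradiated 4 against 4.501 to 4.629 CPM.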

How the results depend on the processing

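No called result reversed its direction in any alternative that gave a value. With scaling by library size only, 71 canonical members and 79 genes of the related lists were lower. Without the replicate block, 31 canonical members were lower and 2 members were higher. Leaving out each replicate in turn gave 2 to 4 higher members, 22 to 52 lower members, 21 to 51 lower canonical members and 21 to 43 lower list genes, where fewer samples entered each fit. Log2 ratios then ran from 1.58 to 1.63 for RPS27L to RPS27, 0.31 to 0.51 for RPL22L1 to RPL22, 0.13 to 0.17 for RPL36AL to RPL36A, -0.58 to -0.39 for RPL39L to RPL39 and 0.14 to 0.25 for RPL7L1 to RPL7. Paired by replicate number as a block, exact sign flips cannot go below p = 0.0625, so none could pass. By this exact test the ratio differences of 1.61 and -0.47 were at that p, and those of 0.39 and 0.20, each with 1 pair the other way, at p = 0.125. The cause of the other shifts was not tested. RPS19 was the 1 canonical member called higher in all 15 alternatives, and the difference in the share of counts stayed between -0.659 and -0.518 percentage points. Without the block, RPS12, RPL30, RPL8, RPL22L1, RPL36AL, RPSA and RPS28 were no longer called. List genes other than the largest rise and fall of each list were not followed singly across the alternatives. RPS10, RPL17 and RPL36A are limited by reads lost to overlapping genes.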

Other observations

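Pseudogenes of the ribosomal protein genes were left out of the set above. The matrix listed 1581 such rows, of which 1065 had counts, and together they held 0.972% of the number of counts on the members. Of 133 tested, 16 were higher (12.0%) and 6 were lower (4.51%) by edgeR, both under the shares over all genes, with a median log2 fold change of -0.08. RPL23AP82 was at 9.48 ± 0.455 CPM in controls and 16.2 ± 1.62 CPM after irradiation (SD, n = 5; log2 fold change 0.77 ± 0.06 SE, edgeR adjusted p = 6.41e-05). RPL6P22 was at 0.0688 ± 0.0347 and 1.84 ± 0.877 CPM (SD, n = 5), so it met the count minimum through the irradiated samples, and its fold rests on few control reads. RPL7AP75 was at 0.887 ± 0.418 and 4.75 ± 0.774 CPM (SD, n = 5; 2.48 ± 0.33 SE, edgeR adjusted p = 0.000745). Of the 16 higher rows, 9 lie within another annotated gene, beside 79 of all 133 rows tested. Among the 9 is RPL24P8, within MAMDC2 on the same strand, whose own log2 fold change was 2.72. RPS27P3, with the most counts of the called rows (18189), was lower by about as much as its parent, at -0.37 against -0.39 for RPS27, and reads of such copies may come from the parent. These pseudogenes were chosen after their values were seen.

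Genes outside the ribosomal protein set that start with a pyrimidine run, as defined above, were counted after the results were seen. Of 816 such genes tested, 249 were lower (30.5%) and 177 were higher (21.7%), with a median log2 fold change of -0.06. Of 11410 genes with a start sequence and no run there, 24.7% were lower and 26.0% were higher, with a median of -0.01. Starts were looked up for only some of the assembly and processing genes, chosen after their values were seen, so they do not describe the lists. NOP53, FBL and NPM1, which fell, start with runs of 8, 7 and 8 bases. RSL24D1, which also fell, has none at the start but a run of 9 bases within 5 bases of it. SBDS and EIF6, which rose, have none at either place, and RRS1, which rose, had no start sequence.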
